A study of Homo sapiens with 12 samples.

Results

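The core spliceosome genes described here are 49 protein-coding genes chosen by name from the table of counts: the Sm and LSm proteins, the proteins specific to the U1 and U2 snRNPs with SF1 and U2AF, the proteins of the U4/U6.U5 tri-snRNP, 3 proteins of the minor spliceosome, and PRPF19 with the helicases DHX8, DHX15 and DHX38. They are 49 of the 59385 gene names counted, and 47 of them were among the 18166 genes with enough counts to be tested. The libraries came from HEK293T, a human embryonic kidney line, carrying a Dox-inducible shRNA that was either non-silencing (shCtrl) or directed against PRRC2B (shPRRC2B). Cells of both lines were taken 36 h after Dox, and both total RNA and polysome-associated RNA, the pooled heavy fractions of a sucrose gradient loaded with cytoplasmic lysate, were enriched for poly(A) and sequenced. There were 3 biological replicates of each line and fraction, 12 libraries in all. Each shRNA was studied in a line grown from a single clone, so the effect of the shRNA and a difference between clones cannot be told apart.

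The spliceosome removes introns from pre-mRNA in the nucleus, and it is built from small nuclear RNAs and their proteins. The U1 snRNP marks the 5′ splice site, SF1 and U2AF mark the branch point and the 3′ splice site, the U2 snRNP with SF3A and SF3B takes over the branch point, and the tri-snRNP then joins and is rearranged by RNA helicases into the catalytic machine. The Sm proteins form a ring on U1, U2, U4 and U5 snRNA and the LSm proteins LSM2 to LSM8 form a ring at the end of U6 snRNA. All of these proteins are made in the cytoplasm from ordinary mRNAs, whose coding regions run from the very short ones of the Sm and LSm proteins to the very long ones of SF3B1, PRPF8 and SNRNP200.

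Library totals lay between 9855734 and 20837542 counts. PRRC2B, the targeted gene, stood at 281 ± 28.7 CPM in the total RNA of shCtrl cells and at 100.1 ± 2.32 CPM in that of shPRRC2B cells (SD, n = 3), a log2 change of -1.49. CPM here are counts scaled to a common library total after TMM. The 6 genes used to check for HEK293T (VIM, KRT8, KRT18, NEFM, NEFL and PAX2) were detected in every library, and their sum was 684 to 762 CPM in shCtrl and 482 to 511 CPM in shPRRC2B total RNA. Of 6 markers of other cell types, HBB and INS had no count in any library, PTPRC, PECAM1 and ALB stayed at or below 0.434 CPM, and COL1A1 reached 33.9 CPM. The sum of those 6 was 14.97 to 19.4 CPM in shCtrl total RNA and 30.6 to 33.9 CPM in shPRRC2B total RNA, and its part in the results was not tested. In bulk RNA, fewer cells with a transcript and less of the transcript per cell cannot be told apart.

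For 4 members the counts could not be read as levels. LSM2, a subunit of the U6 ring, had 0 counts in all 12 libraries. PRPF8, the scaffold of the catalytic centre, had 0 to 3 counts per library, and PRPF31, a U4 snRNP protein mutated in retinitis pigmentosa, had 0 to 53. Every 75-base stretch within the exons of these 3 genes also stood on an alternate sequence of the GRCh38 file used here, and read pairs with several places were not counted. U2AF1, the U2AF subunit that reads the AG of the 3′ splice site, had 16 to 442 counts, and 96.9% of its 75-base stretches occurred more than once on the chromosomes. Whether the alignment of the authors used the same sequences was not tested. The values of U2AF1 and PRPF31 stayed in the counts below unless it is said otherwise, and the same share was 34.7% for SNRPG and 46.2% for SNRPA1, whose levels may therefore be too low.

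Sites at which FLAG-tagged PRRC2B or its P2 fragment was crosslinked to RNA by PAR-CLIP lay inside 11 of the 47 members tested. The central 30 bases are shown for 5 of them, because such sites place PRRC2B or its fragment on these mRNAs. SF1 and SNRNP70 were taken for their sites with both forms of the protein, and SNRNP200, SNRPD3 and LSM4 with the changes of TE described below in view, the first 2 having the largest falls and LSM4 the one called rise among the 11. The positions were taken from the study and the letters from GRCh38, written in the sense of the mRNA, with the longest run of only G and A or only C and T in capitals. All 5 stretches lie in coding exons of the canonical GENCODE 44 transcript.
SF1, exon 9 of 13, chr11:64768168-64768197, minus strand: cagcatctgtgggctccaCCTCTgggcctg
SNRNP70, exon 10 of 10, chr19:49108319-49108348, plus strand: gtggccaggacaacgggctGGAGGGtctgg
SNRPD3, exon 2 of 4, chr22:24557747-24557776, plus strand: ggtgaggtatatcGGGGGAAGctcattgaa
SNRNP200, exon 32 of 45, chr2:96283914-96283943, minus strand: ttcgcattgtggcactcagCTCTTCgctct
LSM4, exon 3 of 5, chr19:18312650-18312679, minus strand: gacgtacaatGGAcacctggtgagctgcga
The SF1 site of 100 bases was 61.0% C and T, and the SNRNP70 site of the same length was 68.0% G and A. The runs in capitals were 3 bases long in LSM4, 5 in SF1, 6 in SNRNP70 and SNRNP200 and 8 in SNRPD3. The LSM4 stretch holds other runs of 3 bases, of both kinds, and the first run of G and A is the one marked. SF1 and SNRNP70 had a site with both the full-length protein and its P2 fragment, and the stretches and percentages given for them are those of P2. With the full-length protein the SNRNP70 site was 69.0% G and A. The stretches of SNRPD3, SNRNP200 and LSM4 come from full-length sites that the study did not list as overlapping with P2. The sites listed under U2AF1 lay outside the annotated gene, elsewhere on chromosome 21, so none is shown.

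Short and long members differed first of all in how their mRNAs were divided between polysomes and total RNA, in both lines. In shCtrl cells 23 of the 47 members were higher in polysome than in total RNA and 20 were lower, beside 32.5% and 39.8% of all genes tested. In shPRRC2B cells 20 were higher and 22 lower, beside 36.6% and 42.3% of all genes. The calls rest on the quasi-likelihood test of edgeR, with p-values adjusted over all genes by Benjamini-Hochberg, and required an adjusted p under 0.05 together with a change beyond 0.5 on the log2 scale. With library totals in place of TMM, every such ratio fell by about 1 on the log2 scale (the median of all genes went from -0.22 to -1.22 in shCtrl cells), and the counts became 18 higher and 23 lower in shCtrl cells. They are therefore ratios relative to the other genes.

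Of the 13 Sm and LSm mRNAs tested, 12 were higher in polysomes in both lines, with a median log2 ratio of 3.25 in shCtrl and 4.04 in shPRRC2B cells. SNRPG, the smallest Sm protein (231 nt of coding sequence), had the highest ratio of all members, a log2 of 3.98 ± 0.19 (SE) in shCtrl and 4.80 ± 0.20 in shPRRC2B cells. The exception among the 13 was SNRPD3, with a coding length of 381 nt like the others but a log2 ratio of -0.89 ± 0.17 in shCtrl and -1.92 ± 0.18 in shPRRC2B cells. The 12 SF3B and PRPF mRNAs tested had a median log2 ratio of -0.98 and -1.53, and they were not one group. SF3B5 and SF3B6, small subunits of SF3B, had coding regions of 261 and 378 nt and log2 ratios of 3.59 and 3.48 in shCtrl cells, next to the Sm mRNAs. SF3B1, SF3B2 and SF3B3, the large subunits, had coding regions of 3915, 2688 and 3654 nt and ratios of -1.55, -1.88 and -1.69. SNRNP200, the helicase that unwinds U4 from U6, had the longest coding region tested (6411 nt) and, apart from PRPF31, the lowest ratio, -3.10 ± 0.14 in shCtrl and -4.63 ± 0.16 in shPRRC2B cells.

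**Figure D1:**
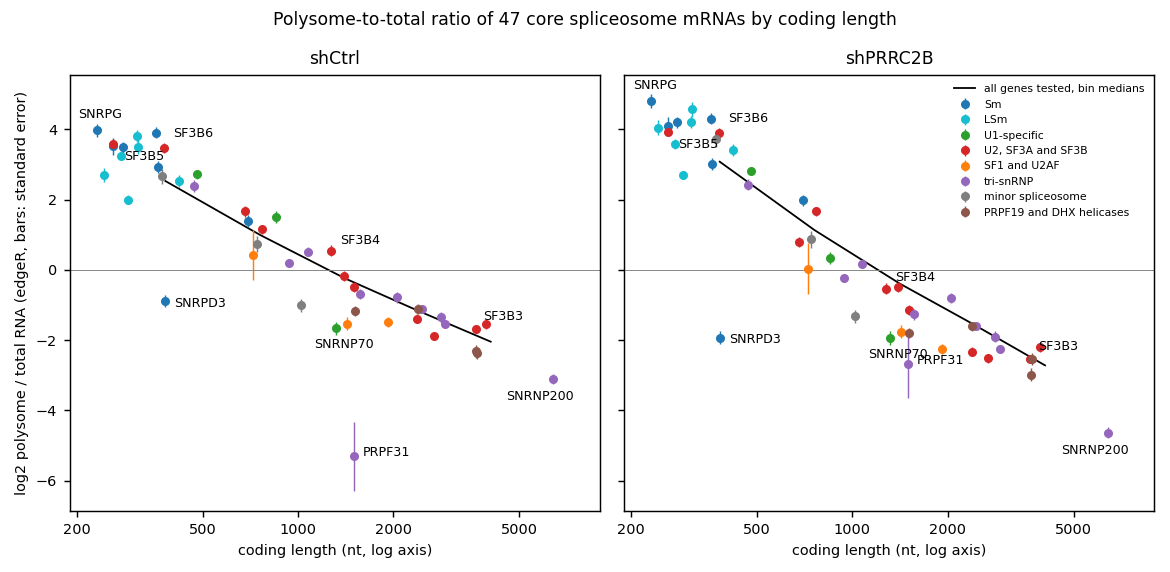
Log2 ratio of polysome to total RNA (y axis, edgeR estimate with its standard error) against coding length in nt (x axis, log scale) for the 47 members tested, in shCtrl cells on the left and shPRRC2B cells on the right, coloured by role. The black line joins the medians of all genes tested in 5 bins of coding length. PRPF31, SNRPD3, SNRNP70, U2AF2 and SNRNP48 lie well below it, and most other members lie nearer to it.

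The order followed coding length as it did for other genes. Across the 47 members, Spearman's rho of coding length with the polysome-to-total ratio was -0.91 in each line, and across all 13592 genes with a coding length it was -0.65 in each. Genes are not independent replicates, and all points share the same 12 libraries, so these are descriptions. Among the 1114 genes with at most 500 nt of coding sequence, 84.4% were higher in polysomes in shCtrl cells with a median of 2.53, and 16 of the 17 members of that size were, with a median of 3.25. Between 1001 and 2000 nt the median of the 11 members, PRPF31 included, was lower than that of all genes of that size. It was -1.01 beside -0.25 in shCtrl cells and -1.325 beside -0.39 in shPRRC2B cells. In shCtrl cells 2 of these 11 members were called higher in polysomes and 7 lower. Among the 2001 genes over 3000 nt, 85.6% were lower in shCtrl cells with a median of -2.04, and all 5 members tested were, with a median of -2.31. Annotated transcript length gave a weaker relation for the members, with a rho of -0.64 and -0.66.

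In total RNA of shCtrl cells the levels per kilobase of coding sequence ran from 16.7 CPM per kb for DHX8 to 434 for SNRPD2, leaving out the 4 members with doubtful counts. The Sm mRNAs other than SNRPD3 lay between 253 and 434 CPM per kb, while SNRPD3 had 91.7. LSM4 (379) was at the level of the Sm mRNAs, and LSM6 (51.9) was the lowest of the LSm mRNAs. In polysome RNA the same scale ran from 3.35 for DHX8 to 6521 for SNRPD2, a far wider span. The 7 mRNAs of the Sm ring, whose proteins enter it in equal numbers, spanned 91.7 to 434 CPM per kb in total RNA and 49.6 to 6521 in polysome RNA. The reads of a gene cover its UTRs too, and per kilobase of the canonical transcript the order was another: LSM8 (4.17 CPM per kb in total RNA) was the lowest and DHX8 had 11.04, while the 7 Sm mRNAs spanned 10.08 to 301, with SNRPD1 at 22.01.

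TE is used here for the ratio of polysome to total RNA, and its change between the lines was tested as the interaction of line and fraction. Of the 47 members tested, TE rose in 8 (17%) and fell in 14 (29.8%) in shPRRC2B cells, beside 10.7% and 16.4% of all genes tested. The median log2 TE change of the members was -0.27, and that of all genes was -0.03. The rises were in SNRPE, SNRPG, LSM4, LSM6, LSM7, LSM8, SNRNP25 and SNRPA1. The falls were in SNRPD3, SNRPA, SNRPB2, SF3A1, SF3A3, SF3B1, SF3B2, SF3B3, SF3B4, SF1, EFTUD2, PRPF4, SNRNP200 and PRPF19. The count of rises was 5 without replicate 3 of shCtrl polysome RNA and 5 without replicate 2 of shPRRC2B total RNA. It was 2 when each library was corrected for its trend with transcript length and 1 when it was corrected for that with coding length, while the falls were 13 and 10. Both of these counts of falls include members that were not called without the correction. With either correction the rises of SNRPE, SNRPG, LSM4, LSM7, SNRNP25 and SNRPA1 and the falls of SF3B1, SF3B3 and EFTUD2 were no longer called, and with that for coding length neither were those of LSM8, SF3B2 and PRPF4.

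Dividing each polysome library by the total library of the same number gave 3 ratios per line, with the numbers serving only to form the ratios. The 3 ratios of shPRRC2B cells were all higher than those of shCtrl cells in 13 members (27.7%) and all lower in 19 (40.4%), beside 18.9% and 21.2% of all genes tested. They overlapped in 15. The 3 knockdown values were all higher in 22 members and all lower in 20 in total RNA, beside 34.1% and 28.8% of all genes, and in 6 and 14 in polysome RNA, beside 21.6% and 21.5%.

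**Figure D2:**
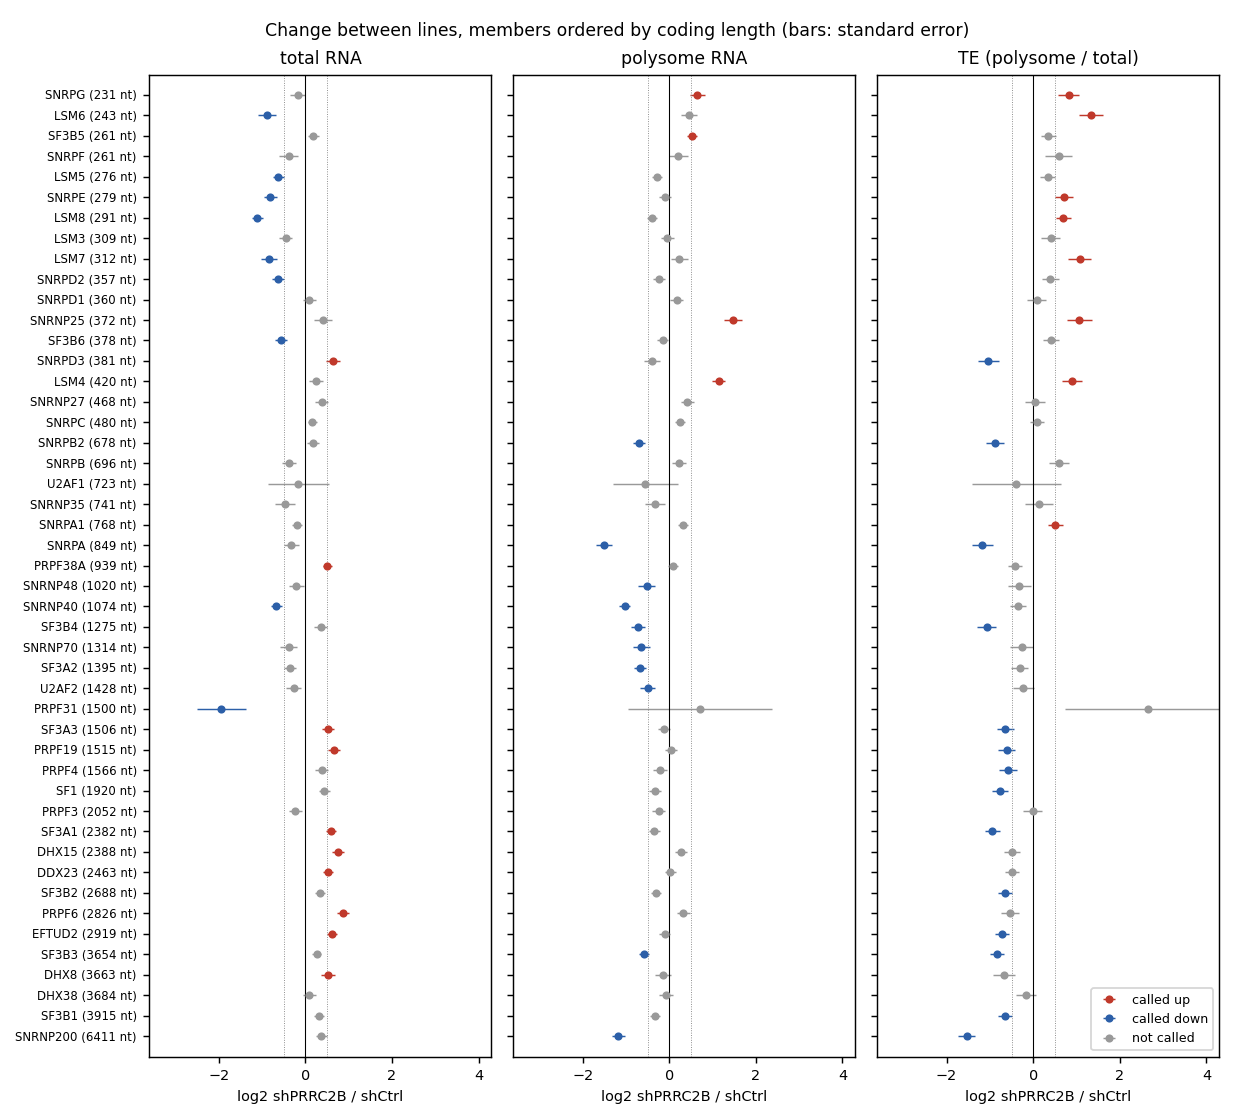
Log2 change between shPRRC2B and shCtrl (x axis) in total RNA, polysome RNA and TE for the 47 members tested, ordered by coding length from the shortest at the top, with the standard error of the edgeR fit. Red points were called up, blue points called down and grey points not called, and dotted lines mark 0.5 in either direction; called rises of TE stand in the upper part and called falls mostly in the lower part, with SNRPD3, SNRPB2 and SNRPA as falls among the shorter mRNAs.

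The Sm proteins as a class had 2 rises and 1 fall of TE among 7, with a median of 0.59. SNRPG had 56.8, 59.9 and 58.8 CPM in the 3 libraries of shCtrl total RNA, 55.3, 50.2 and 49.5 in shPRRC2B total RNA, 1245, 832 and 687 in shCtrl polysome RNA and 1463, 1299 and 1555 in shPRRC2B polysome RNA. Its polysome values in shPRRC2B cells were all above those in shCtrl cells, while the total values were slightly lower. The log2 TE change of SNRPG was 0.82 ± 0.24 (adjusted p = 0.0185, edgeR) and its polysome change 0.64 ± 0.17 (adjusted p = 0.00539), and the TE call was lost without replicate 2 or 3 of shCtrl polysome RNA, 2 or 3 of shPRRC2B total RNA, or 3 of shPRRC2B polysome RNA, with values from 0.59 to 1.07. The polysome call of SNRPG was lost without replicate 2 (0.47) or 3 (0.365) of shCtrl or 3 (0.50) of shPRRC2B polysome RNA, and with the trend on transcript length (0.33) or coding length (0.235) removed. SNRPE, a partner of SNRPF and SNRPG in the ring, fell in total RNA, from 97.9 ± 2.97 to 55.95 ± 1.65 CPM (SD, n = 3), and had nearly the same polysome level, 1099.8 ± 247 against 1030.3 ± 75.4 CPM. Its log2 TE change was 0.71 ± 0.21 (adjusted p = 0.0161, edgeR), and the call was lost without replicate 2 or 3 of shCtrl polysome, 2 of shPRRC2B total or 3 of shPRRC2B polysome RNA, with values from 0.52 to 0.86.

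SNRPD3, the Sm protein that pairs with SNRPB, went the other way. It had 34.2, 34.7 and 35.9 CPM in shCtrl total RNA and 57.3, 52.7 and 52.3 in shPRRC2B total RNA, with no overlap between lines. In polysome RNA it had 17.03, 18.2 and 21.5 CPM in shCtrl and 18.8, 13.7 and 10.2 in shPRRC2B cells, where the highest value of the knockdown lay within the control range. Total RNA rose by a log2 of 0.63 ± 0.16 (adjusted p = 0.00673, edgeR) and TE fell, with a log2 change of -1.04 ± 0.24 (adjusted p = 0.00492). Both calls held under every alternative and without any single library. SNRPD2 also changed in total RNA, with a log2 of -0.63 ± 0.14 that was no longer called with either length trend removed, and SNRPB, SNRPD1 and SNRPF passed in neither fraction nor in TE (log2 TE change 0.59, 0.08 and 0.59).

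All 6 LSm mRNAs tested had a TE change above 0, from 0.33 for LSM5 to 1.33 for LSM6, with a median of 0.80, and 4 of them passed. In 3 of these 4 the total RNA had fallen. LSM6 had 12.4, 13.7 and 11.7 CPM in shCtrl and 8.48, 5.93 and 6.2 in shPRRC2B total RNA, and 114, 73.4 and 60.7 in shCtrl and 116, 106 and 118 in shPRRC2B polysome RNA. The total values did not overlap between lines and the polysome values did, replicate 1 of shCtrl being as high as the knockdown. The log2 change of LSM6 was -0.89 ± 0.20 in total RNA (adjusted p = 0.00292, edgeR) and 1.33 ± 0.28 in TE (adjusted p = 0.00193), and LSM6 was the single member whose rise of TE remained with the trend on coding length removed.

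LSM7 had 69.03, 76.3 and 57.04 CPM in shCtrl and 38.5, 42.1 and 32.8 in shPRRC2B total RNA, against 1070.5, 630.2 and 592 CPM in shCtrl and 868, 840.0 and 985 in shPRRC2B polysome RNA. As in LSM6, the total values were lower in all 3 knockdown libraries and replicate 1 of shCtrl polysome RNA stood above the other 2. The log2 TE change of LSM7 was 1.07 ± 0.27 (adjusted p = 0.00764, edgeR). LSM8, which sets the nuclear ring apart from the cytoplasmic ring with LSM1, had 52.01, 49.3 and 53.7 CPM in shCtrl and 25.01, 24.03 and 22.95 in shPRRC2B total RNA, and 229.9, 207 and 186 in shCtrl and 146, 151 and 171 in shPRRC2B polysome RNA. It was lower in the knockdown in both fractions without overlap, by more in total RNA, where its log2 change of -1.11 ± 0.12 was, PRPF31 aside, the largest fall of any member (adjusted p = 3.3e-06, edgeR), and its TE change was 0.70 ± 0.17.

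LSM4 differed from these 3 in that polysome RNA changed. It had 155, 187 and 136 CPM in shCtrl and 194, 201 and 171 in shPRRC2B total RNA, which overlapped, and 1112, 887 and 765 CPM in shCtrl and 1810.3, 2211 and 2055 in shPRRC2B polysome RNA, which did not. The log2 polysome change of LSM4 was 1.14 ± 0.16 (adjusted p = 2.4e-05, edgeR) and held in every alternative, and its TE change was 0.89 ± 0.22 (adjusted p = 0.00697). LSM5 had 32.9, 36.02 and 37.7 CPM in shCtrl and 23.7, 23.03 and 22.3 in shPRRC2B total RNA, and 348, 324 and 343 CPM in shCtrl and 271, 246 and 313 in shPRRC2B polysome RNA. LSM5 was lower in the knockdown in both fractions, with a total change of -0.62 ± 0.12 that passed (-0.35 and not called with the trend on coding length removed) and a TE change of 0.33 ± 0.17 that did not (adjusted p = 0.153, edgeR). LSM3 passed in none of the 3 (log2 TE change 0.41).

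**Figure D3:**
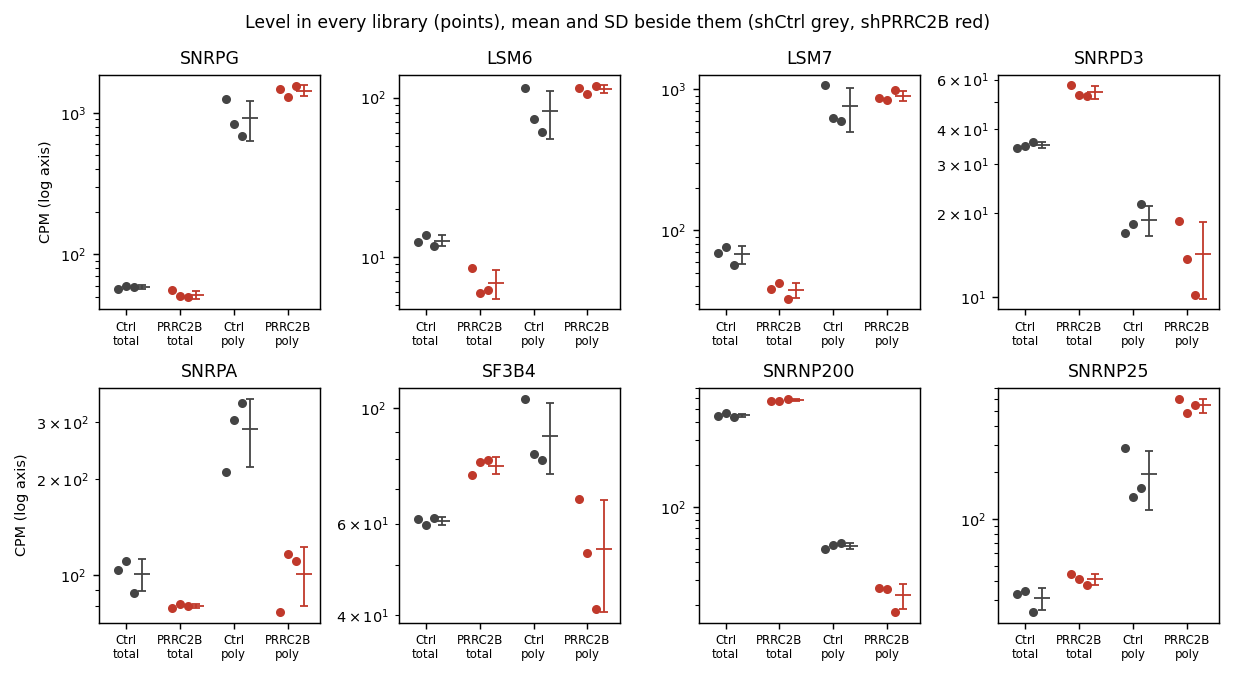
CPM on a log axis in each of the 12 libraries for SNRPG, LSM6, LSM7, SNRPD3, SNRPA, SF3B4, SNRNP200 and SNRNP25, with points for libraries and the mean and SD (n = 3) beside them, shCtrl in grey and shPRRC2B in red. The polysome values of SNRNP200 lie between 49.9 and 54.8 CPM in shCtrl and between 17.8 and 26.1 CPM in shPRRC2B cells, while replicate 1 of shCtrl polysome RNA is the highest of its group for SNRPG, LSM6, LSM7 and SNRNP25.

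Among the 3 proteins specific to U1, SNRPA, which binds the second stem-loop of U1 snRNA, had the largest fall in polysome RNA of all members. It had 103, 110.3 and 87.9 CPM in shCtrl and 79.04, 81.2 and 79.9 in shPRRC2B total RNA, and 210.1, 306 and 344 CPM in shCtrl and 76.8, 116 and 110.3 in shPRRC2B polysome RNA, with the knockdown lower in every library of both fractions. The log2 change of SNRPA was -1.50 ± 0.18 in polysome RNA (adjusted p = 4.45e-06, edgeR), -0.33 ± 0.17 in total RNA (adjusted p = 0.154) and -1.18 ± 0.25 in TE (adjusted p = 0.00219), and the first and last of these calls held throughout. SNRNP70, which carries the bound stretch shown above and touches the first stem-loop, had 316, 342 and 294 CPM in shCtrl and 251, 246 and 232 in shPRRC2B total RNA, and 141, 86.2 and 73.04 CPM in shCtrl and 52.05, 77.6 and 61.6 in shPRRC2B polysome RNA. It passed in polysome RNA, with a log2 change of -0.65 ± 0.20 (adjusted p = 0.012, edgeR) that was -0.41 and no longer called without replicate 1 of shCtrl polysome RNA. Its TE change was -0.27 ± 0.27 (adjusted p = 0.501, edgeR). SNRPC, which steadies the pairing of U1 with the 5′ splice site, had 83.8, 84.8 and 85.2 CPM in shCtrl and 95.2, 94.4 and 94.7 in shPRRC2B total RNA, and 549, 599 and 522 in shCtrl and 706, 659 and 627 in shPRRC2B polysome RNA, higher in the knockdown in both by less than the threshold, and its TE change was 0.09 ± 0.16.

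Among the 11 genes of the U2 snRNP, SF3A and SF3B, TE rose in 1, fell in 7 and did not pass in 3. SNRPA1 and SNRPB2 form a pair on U2 snRNA; TE rose in the first and fell in the second. SNRPA1 had 103, 105 and 97.5 CPM in shCtrl and 91.7, 88.9 and 87.2 in shPRRC2B total RNA, and 203, 268 and 209 in shCtrl and 272, 288 and 292 in shPRRC2B polysome RNA, and neither pair of groups overlapped. Its TE change of 0.51 ± 0.17 (adjusted p = 0.034, edgeR) stood just past the threshold and was lost in 10 of the 12 fits that left out 1 library (all but those without replicate 3 of shCtrl total or replicate 2 of shCtrl polysome RNA), with values from 0.40 to 0.60. The TE call of SNRPA1 was also lost with DESeq2 or its size factors, with a filter of 1 count and with a replicate block within line. SNRPB2 had 139 ± 27.3 CPM in shCtrl and 85.3 ± 11.8 in shPRRC2B polysome RNA (SD, n = 3), with a TE change of -0.88 ± 0.21 (adjusted p = 0.00477, edgeR) that held throughout.

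SF3B4, which binds pre-mRNA near the branch point and is mutated in Nager syndrome, had 61.3, 59.6 and 61.5 CPM in shCtrl and 74.3, 78.9 and 79.7 in shPRRC2B total RNA, and 105, 81.9 and 79.5 CPM in shCtrl and 67.1, 52.7 and 41.1 in shPRRC2B polysome RNA. It was higher in the knockdown in total RNA and lower in polysome RNA, in each case without overlap. The log2 changes of SF3B4 were 0.35 ± 0.15 in total RNA (adjusted p = 0.083, edgeR), -0.72 ± 0.16 in polysome RNA (adjusted p = 0.00116) and -1.08 ± 0.22 in TE (adjusted p = 0.00168). TE also fell in SF3A1, SF3A3, SF3B1, SF3B2 and SF3B3, with log2 changes of -0.94, -0.64, -0.66, -0.64 and -0.84. SF3A1 and SF3A3 rose in total RNA, by a log2 of 0.60 and 0.53, SF3B3 fell in polysome RNA with -0.58, and SF3B1 and SF3B2 passed in neither fraction. The TE call of SF3A3 was lost without replicate 1 or 2 of shCtrl total, 1 of shPRRC2B total, or 2 or 3 of shPRRC2B polysome RNA, with values from -0.85 to -0.59. It was lost with library totals as well. SF3B1 is the subunit most often mutated in blood cancers, and its level was 312 ± 8.1 CPM in shCtrl and 388 ± 19.7 CPM in shPRRC2B total RNA, and 106 ± 11.4 and 84.1 ± 1.55 CPM in polysome RNA (SD, n = 3). SF3A2, SF3B5 and SF3B6 did not pass in TE, with -0.31, 0.34 and 0.41, although SF3A2 fell and SF3B5 rose in polysome RNA and SF3B6 fell in total RNA. The polysome call of SF3B5 was lost without replicate 2 or 3 of shCtrl or any one replicate of shPRRC2B polysome RNA, with values from 0.34 to 0.53. It was also lost with a filter of 1 count. With either length trend removed, the calls of SF3B3 and SF3B5 in polysome RNA and of SF3B6 in total RNA were lost.

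Of the genes that recognise the branch point and the 3′ splice site, SF1 had 214, 209 and 201 CPM in shCtrl and 284, 286 and 274 in shPRRC2B total RNA, and 80.4, 67.9 and 75.3 CPM in shCtrl and 70.7, 57.8 and 49.4 in shPRRC2B polysome RNA. The total values were higher in every knockdown library, while the polysome values overlapped. TE of SF1 fell, with a log2 change of -0.77 ± 0.18 (adjusted p = 0.00537, edgeR) that held in every alternative. U2AF2, which reads the pyrimidine tract, had 337, 365 and 287 CPM in shCtrl and 289, 271 and 259 in shPRRC2B total RNA, and 101, 143 and 99.6 in shCtrl and 95.7, 86.5 and 60.7 in shPRRC2B polysome RNA. Its polysome change of -0.50 ± 0.17 was at the edge of the threshold (adjusted p = 0.0254, edgeR), was lost without replicate 2 of shCtrl or 3 of shPRRC2B polysome RNA with values from -0.75 to -0.41, and its TE change was -0.23 ± 0.24. The polysome call of U2AF2 was also lost with TMM within each fraction and with 10 counts required in every library. So it was with the coding length trend removed and with the polysome libraries alone. U2AF1 had 9.57, 12.5 and 8.69 CPM in shCtrl and 5.17, 15.8 and 6.55 in shPRRC2B total RNA, and 36.97, 2.17 and 1.77 in shCtrl and 10.5, 14.03 and 3.9 in shPRRC2B polysome RNA, a spread that gave a TE change of -0.39 ± 1.03 and no call. Without replicate 1 of shCtrl polysome RNA the value for U2AF1 was 2.38.

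Of the 10 tri-snRNP genes tested, TE fell in 3 and rose in none that passed. SNRNP200, the helicase already named for its low ratio, had 441, 463 and 440.3 CPM in shCtrl and 572, 571 and 592 in shPRRC2B total RNA, and 49.9, 53.02 and 54.8 CPM in shCtrl and 26.1, 25.95 and 17.8 in shPRRC2B polysome RNA. The knockdown was higher in every total library and lower in every polysome library. Its log2 TE change of -1.54 ± 0.19 (adjusted p = 4.54e-05, edgeR) was the largest fall among the members, its polysome change was -1.17 ± 0.14 (adjusted p = 6.01e-06), and both calls held throughout. EFTUD2, the U5 GTPase, and PRPF4, of the U4/U6 snRNP, fell in TE with log2 changes of -0.73 and -0.59, the latter just past the threshold (adjusted p = 0.0475, edgeR). The call of PRPF4 was lost without any one of the total libraries, replicate 2 of shCtrl polysome RNA or replicate 3 of shPRRC2B polysome RNA, with values from -0.73 to -0.45. It was also lost with library totals, with TMM within each fraction, with 10 counts required in every library and with the block within line.

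PRPF6, which bridges U5 and U4/U6, rose most in total RNA. It had 67.9, 69.8 and 69.04 CPM in shCtrl and 131, 122 and 123 in shPRRC2B total RNA, and 32.9, 20.3 and 27.6 CPM in shCtrl and 30.8, 38.6 and 31.8 in shPRRC2B polysome RNA. Its total change was 0.86 ± 0.14 (adjusted p = 0.000223, edgeR) and its TE change of -0.54 ± 0.21 missed the threshold (adjusted p = 0.0644). SNRNP40, a ring-shaped protein of U5, fell in both fractions, from 67.5, 72.9 and 66.7 to 43.1, 44.8 and 42.2 CPM in total RNA and from 95.9, 113 and 89.7 to 54.7, 48.9 and 43.05 CPM in polysome RNA. No value of one line lay within the other, the log2 changes of SNRNP40 were -0.67 ± 0.12 and -1.02 ± 0.13 (adjusted p = 0.000536 and 7.24e-06, edgeR), and TE changed by -0.35 ± 0.18, which did not pass. PRPF31 had 2.00, 1.75 and 1.17 CPM in shCtrl and 0.186, 0.428 and 0.655 in shPRRC2B total RNA, and 0, 0.108 and 0 CPM in shCtrl and 0.172, 0 and 0 in shPRRC2B polysome RNA, so that its TE change of 2.64 ± 1.90 rests on 3 counts in polysome RNA. PRPF3, PRPF38A, SNRNP27 and DDX23 had TE changes of -0.01, -0.42, 0.04 and -0.49, none of which passed.

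The minor spliceosome removes the rare U12-type introns. SNRNP25, a small protein of its U11/U12 particle, had 32.7, 34.3 and 25.1 CPM in shCtrl and 44.2, 41.1 and 37.4 in shPRRC2B total RNA, and 288, 139.6 and 158 CPM in shCtrl and 599, 485 and 549 in shPRRC2B polysome RNA. Its polysome level in the knockdown was far above the control in all 3 libraries, with the largest polysome rise of the members, 1.48 ± 0.21 (adjusted p = 2.76e-05, edgeR), and a TE change of 1.07 ± 0.30 (adjusted p = 0.0129). SNRNP48, of the same particle, had 42.4, 44.4 and 47.5 CPM in shCtrl and 36.98, 38.7 and 40.5 in shPRRC2B total RNA, and 21.2, 24.7 and 20.84 in shCtrl and 17.8, 18.8 and 9.79 in shPRRC2B polysome RNA, with replicate 3 of the knockdown well below the other 2. Its polysome change was -0.52 ± 0.19 (adjusted p = 0.032, edgeR), lost without replicate 2 of shCtrl or 3 of shPRRC2B polysome RNA with values from -0.76 to -0.37, and its TE change -0.32 ± 0.26. The polysome call of SNRNP48 was also lost with 10 counts required in every library, with the transcript length trend removed and with the polysome libraries alone. SNRNP35, the counterpart of SNRNP70 in that particle, had a TE change of 0.13 ± 0.33.

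PRPF19, the ubiquitin ligase at the heart of the activating complex, had 127, 128 and 116 CPM in shCtrl and 196, 194 and 195 in shPRRC2B total RNA, and 52.97, 56.3 and 54.8 in shCtrl and 72.2, 47.9 and 48.5 in shPRRC2B polysome RNA. The change lay in total RNA, with a log2 of 0.66 ± 0.14 (adjusted p = 0.00149, edgeR), and TE fell, with a log2 change of -0.62 whose call was lost without any one of the total libraries or replicate 2 or 3 of shPRRC2B polysome RNA, with values from -0.90 to -0.54. The TE call of PRPF19 was lost with library totals as well. DHX15, which takes spent spliceosomes apart, had 132, 127 and 136 CPM in shCtrl and 218, 224 and 224 in shPRRC2B total RNA, and 58.2, 61.5 and 62.6 in shCtrl and 91.6, 64.98 and 62.3 in shPRRC2B polysome RNA. It rose in total RNA by a log2 of 0.76 ± 0.13 (adjusted p = 0.000334, edgeR) and had a TE change of -0.49 ± 0.19, which did not pass. DHX8, which releases the finished mRNA, had 59.6, 64.8 and 59.4 CPM in shCtrl and 84.2, 90.5 and 90.4 in shPRRC2B total RNA, and 17.03, 10.1 and 9.64 in shCtrl and 12.97, 11.1 and 9.41 in shPRRC2B polysome RNA, with a TE change of -0.67 ± 0.25 (adjusted p = 0.058, edgeR). DHX38, which acts before the second catalytic step, had 88.2, 87.7 and 77.3 CPM in shCtrl and 93.9, 88.4 and 87.2 in shPRRC2B total RNA, and 17.9, 19.95 and 11.3 in shCtrl and 15.6, 14.2 and 16.8 in shPRRC2B polysome RNA, and passed in no comparison between the lines.

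Taking the 2 fractions one at a time, 10 members rose and 9 fell in total RNA, beside 14.9% and 14.1% of all genes tested, and 4 rose and 10 fell in polysome RNA, beside 18.4% and 21.4% of all genes. With library totals the split in total RNA was 6 and 10, with SF3A3, PRPF38A, DDX23 and DHX8, all of them between 0.51 and 0.53, no longer called. The 6 rises in total RNA that did not depend on this were SNRPD3, SF3A1, PRPF6, EFTUD2, PRPF19 and DHX15. The count of rises in total RNA was also 6 in each of the 6 fits that left out a polysome library. The count of rises in polysome RNA was 7 without replicate 1 of shCtrl polysome RNA, and 2 without replicate 2 or 3 of it or without replicate 3 of shPRRC2B polysome RNA.

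None of the 8 members whose TE rose passed in both fractions: SNRPG, LSM4 and SNRNP25 passed in polysome RNA, SNRPE, LSM6, LSM7 and LSM8 in total RNA and SNRPA1 in neither. Of the 14 whose TE fell, SNRPA, SNRPB2, SF3B3, SF3B4 and SNRNP200 passed in polysome RNA, SNRPD3, SF3A1, SF3A3, EFTUD2 and PRPF19 in total RNA, and SF3B1, SF3B2, SF1 and PRPF4 in neither. No member passed in total and polysome RNA with opposite signs.

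**Figure D4:**
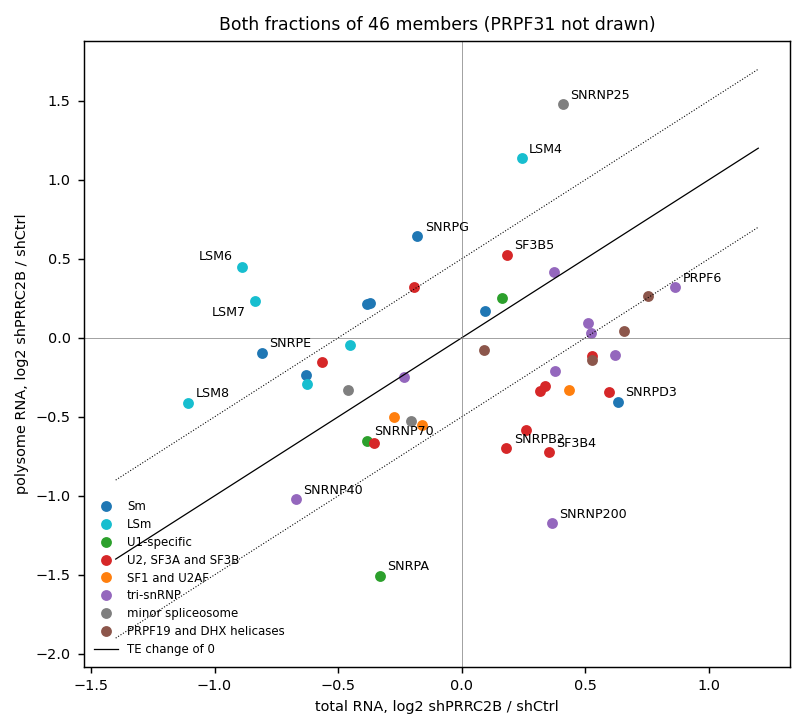
Log2 change between shPRRC2B and shCtrl in total RNA (x axis) and polysome RNA (y axis) for the members tested apart from PRPF31, coloured by role, with the line of equal change and dotted lines at a TE change of 0.5 in either direction. LSM6, LSM7 and LSM8 lie to the left of the upper dotted line, SNRNP25 and LSM4 above it, and SNRNP200, SNRPD3 and SNRPA below the lower one.

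The comparison of the Sm and LSm mRNAs with the SF3B and PRPF mRNAs condenses these values. The 13 Sm and LSm mRNAs had median log2 changes of 0.59 in TE, -0.45 in total RNA and 0.17 in polysome RNA, with 6 rises and 1 fall of TE. The 12 SF3B and PRPF mRNAs had medians of -0.57, 0.33 and -0.18, with no rise and 6 falls of TE. The difference of the medians was 1.16 in TE, -0.78 in total RNA and 0.35 in polysome RNA. With the trend on coding length removed it was 0.43 in TE, -0.68 in total RNA and -0.07 in polysome RNA. With that on transcript length removed it was 0.49 in TE, -0.76 in total RNA and 0.045 in polysome RNA.

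All genes tested gave shares of the same order by size. Of the 1114 genes with at most 500 nt of coding sequence, 28.6% rose and 3.68% fell in TE, and of the 17 members of that size 7 rose and 1 fell. Of the 2001 genes over 3000 nt, 3.00% rose and 43.7% fell, and of the 5 members 0 rose and 3 fell. Spearman's rho of coding length with the TE change was -0.68 over the members and -0.34 over the 13592 genes. In total RNA it was 0.56 over the members and 0.12 over all genes: of the 17 members of at most 500 nt 1 rose and 7 fell, beside 10.6% and 22.5% of genes of that size, and of the 7 between 2001 and 3000 nt 5 rose and 0 fell, beside 18.9% and 12.3%.

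The same contrast could be read in each library. The median log2 level of the Sm and LSm mRNAs minus that of the SF3B and PRPF mRNAs was between -0.25 and 0.05 in shCtrl total RNA and between -0.79 and -0.64 in shPRRC2B total RNA, without overlap. In polysome RNA it was 3.75, 3.34 and 2.94 in shCtrl and 3.62, 3.82 and 4.20 in shPRRC2B cells, and these overlapped through replicate 1 of shCtrl. For all genes, the median of those up to 500 nt minus the median of those over 3000 nt was between -0.89 and -0.77 in shCtrl and between -1.14 and -1.06 in shPRRC2B total RNA, and between 3.08 and 3.30 in shCtrl and between 3.93 and 4.15 in shPRRC2B polysome RNA. The part of this general difference in the changes of the members was not tested beyond removing the length trends.

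**Figure D5:**
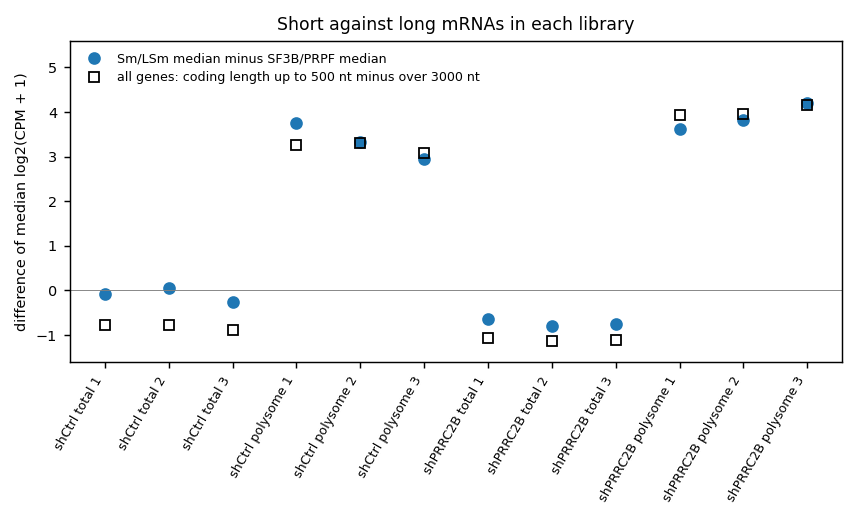
Difference of median log2(CPM + 1) in each of the 12 libraries (x axis): filled circles give the Sm and LSm mRNAs minus the SF3B and PRPF mRNAs, open squares give all genes of at most 500 nt of coding sequence minus all over 3000 nt. Both are near or below 0 in total RNA and near 3 to 4 in polysome RNA, and replicate 1 of shCtrl polysome RNA stands above its group for the circles (3.75) and not for the squares (3.27).

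Another 67 spliceosome genes were looked at, of which 64 were tested. Among them TE rose in 5 (7.81%) and fell in 14 (21.9%) with a median of -0.25, beside 10.7% and 16.4% of all genes tested. Total RNA rose in 15 (23.4%) and fell in 4 (6.25%), beside 14.9% and 14.1%, and polysome RNA rose in 10 (15.6%) and fell in 9 (14.1%), beside 18.4% and 21.4%. The difference between these genes and the members was not tested. The 8 U2-associated genes had 5 falls and 1 rise, between -1.39 for DDX46, a helicase of early U2 binding, and 1.02 for PUF60, a relative of U2AF2. The 14 genes of the activated spliceosome had 5 falls and no rise, between -1.06 for AQR and 0.22 for BUD31. The 16 genes of snRNP assembly and import had 2 falls and 1 rise among 15 tested, between -1.30 for TGS1, which forms the cap of the snRNAs, and 3.44 for SMN2, whose counts cannot be parted from those of its near copy SMN1. The 9 further tri-snRNP genes ranged from -0.77 for SART1 to 0.63 for TXNL4A, with 1 fall and 1 rise. The 5 tested genes of the second step and disassembly ranged from -0.98 for CDC40 to 0.21 for DDX41 with 1 fall, the 7 of the minor spliceosome from -0.37 for ZRSR2 to 0.74 for RNPC3 with 1 rise, and the 6 Sm-like genes outside the core from -0.72 for LSM14A to 0.54 for LSM10 with 1 rise.

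Of the 11 members with a PRRC2B site inside the gene, TE fell in SF1, SF3B2, SNRNP200, SNRPD3 and PRPF19, rose in LSM4 and did not pass in 5, where 16.4% of all genes tested fell and 10.7% rose. Among those 5, the log2 TE change was -0.49 in DDX23, -0.54 in PRPF6, -0.27 in SNRNP70 and -0.23 in U2AF2, and in the fifth, which is not named here, it was above 0. Of the 2 with sites in both forms of the protein, SF1 passed and SNRNP70 did not. Of the 36 members tested that had no such site, 7 rose and 9 fell. The difference between members with and without a site was not tested.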

How the data were processed

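Total and polysome-associated RNA of the 2 HEK293T lines was sequenced in 12 libraries. The authors deposited raw counts of read pairs per gene name, without normalization, for 59385 names. Per the labels and the methods, Trimmomatic 0.36 was used for trimming, HISAT2 (2.1.0 in the submitters' processing notes) for mapping to GRCh38, and featureCounts of Subread 2.0.1 for counting on GENCODE gene names, which left out pairs with several places and took no account of strand. The table held 0 value columns outside these libraries. Library totals of 9855734 to 20837542 counts limit the precision of low genes, and no interval for counting error is given. Levels are CPM over TMM-scaled totals.

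In edgeR 4.0.16 (R 4.3.3), filterByExpr (minimum count 10) left 18166 genes, TMM factors were computed over all 12 libraries, and glmQLFit and glmQLFTest gave the change in total RNA, in polysome RNA, in TE (their interaction) and polysome against total RNA in each line, all from one fit without a block. P-values were adjusted by the Benjamini-Hochberg method over all genes tested, and calls were made at an adjusted p under 0.05 with a change beyond 0.5 on the log2 scale. The p-values measure the spread between these samples only. The members and gene lists were chosen with earlier results of these data known. Values in every library were given for the 3 members with the largest called rise and fall in total RNA, polysome RNA and TE (mean of at least 10 CPM), the highest and lowest TE change of each role, and SF1, SNRNP70 and U2AF1, which the study lists as bound. Other members with values were named to account for all 49. Coding and transcript lengths came from canonical GENCODE 44 transcripts, while the counts used an earlier GENCODE release, and alternate copies were sought as 75-base stretches in a GRCh38 file with 430 alternate or unplaced sequences. One binding site is not reported here. The scripts were tested on simulated data.

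The alternatives were DESeq2 1.42.0, its size factors (RLE), library totals, TMM within each fraction, a filter of 1 count or of 10 counts in every library, limma 3.58.1 on log2(CPM + 1), a replicate block over all libraries or within line, the lowess trend (span 0.3) on transcript length removed with and without the block, no minimum change, the compared groups alone, and leaving out single libraries. Removing the trend on coding length, and leaving out U2AF1 and PRPF31, were chosen after seeing the data.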

Additional observations from a re-analysis of the deposited data

Results flagged for a closer look

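SF3B4 was the one member called higher in polysome than in total RNA in one line and lower in the other. The log2 ratio was 0.54 ± 0.15 (adjusted p = 0.0041, edgeR's quasi-likelihood test) in shCtrl cells and -0.53 ± 0.15 (adjusted p = 0.0042) in shPRRC2B cells, and the difference between the lines, -1.08, had an adjusted p of 0.00168. The 3 ratios were 1.71, 1.37 and 1.29 in shCtrl and 0.903, 0.668 and 0.515 in shPRRC2B cells. With library totals the log2 ratios were -0.46 and -1.47, both below 0, while the difference kept its sign and its call. With TMM within each fraction they were -0.464 and -1.475. In both settings the ratio in shCtrl cells was not called, so the opposite calls were lost. Over single libraries left out the ratio in shCtrl cells ranged from 0.38 to 0.60, that in shPRRC2B cells from -0.81 to -0.43 and the difference from -1.34 to -0.95. The ratio of each line thus missed the threshold of 0.5 in some of these fits.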

How the results depend on the processing

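Removing the trend on transcript length left 2 members with a called rise of TE (2 with the replicate block as well) and 2 with a rise in polysome RNA (2 with the block), and a Sm and LSm minus SF3B and PRPF difference in TE of 0.49 (0.52 with the block). The same difference in polysome RNA was then 0.045 (0.099 with the block), beside 0.35 without the correction. Removing the trend on coding length left 1 rise of TE, 9 members higher and 13 lower in polysomes in shCtrl cells and 8 higher in shPRRC2B cells, with differences of 0.43 in TE, -0.68 in total RNA and -0.073 in polysome RNA, the last of opposite sign to the 0.35 reported. The rises in total RNA numbered 6 with library totals, 6 with TMM within each fraction, 6 with every gene of 1 count tested and 6 with the total libraries alone. Library totals and TMM within each fraction moved the median polysome-to-total ratio of all genes from -0.22 to -1.22 in shCtrl cells and from -0.22 to -1.16 in shPRRC2B cells, testing every gene of 1 count moved it by -0.32 and -0.26, requiring 10 counts in every library by 0.17 in both lines and removing the coding length trend by 0.11 in shCtrl cells, while no median of a change between the lines moved by over 0.1. Leaving out each library in turn gave 5 to 10 rises and 11 to 19 falls of TE, 6 to 10 and 8 to 11 in total RNA, 2 to 7 and 9 to 13 in polysome RNA, 21 to 23 and 20 to 21 in polysome against total RNA of shCtrl and 20 and 20 to 23 of shPRRC2B cells, and differences of 1.09 to 1.28 in TE, -0.80 to -0.75 in total RNA and 0.11 to 0.41 in polysome RNA. The falls of TE were most, 19, without replicate 1 of shPRRC2B polysome RNA. The cause of these shifts was not tested.

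TE changes that turned sign were those of LSM5 (-0.36 with the coding length trend removed), SNRPC (-0.44 with the transcript length trend removed, -0.44 with the block as well, -0.32 with the coding length trend removed, and -0.018 to 0.095 over single libraries left out), SNRPA1 (-0.021 with the transcript length trend removed and -0.016 with the block as well), DHX38 (0.067, 0.08 and 0.21 in the 3 fits named for SNRPC), U2AF1 (0.72 with limma, 0.72 with the block within line, -0.97 to 2.38 over single libraries left out), SNRNP70 (-0.51 to 0.021) and PRPF31 (-0.57 to 5.18). With U2AF1 and PRPF31 left out, no count moved by more than 1.5 times. Same-numbered libraries of different groups had deviations correlated between -0.11 and 0.10 (18 pairs) and differently numbered ones between -0.14 and 0.15 (36 pairs). Correlations this small in both kinds of pair cannot decide whether same-numbered libraries belong together. With the replicate block 9 members rose and 14 fell in TE, and with the block within line 8 and 13. Over all alternatives, 310 recomputed counts and median differences stayed close to the main value, 28 moved and 1 turned sign. Close meant within 1.5 times for a count and within the SD over replicate numbers for a median difference. The polysome difference was -0.21, 0.32 and 0.41 by replicate number, a spread so wide that 0.045 still counted as close to 0.35. Values of single members were recomputed for 46 changes, all of members chosen by the rule for values in every library. Among these recomputed values, 1032 kept their direction and their side of the threshold, 83 lost a call, 16 gained one and 17 turned sign. The calls of other members, such as PRPF4, SF3A3, SF3B5, PRPF38A and DDX23, are not in these numbers. The counts of U2AF1, PRPF31, PRPF8 and LSM2 allow no firm value, and the part of depth and of repeated sequence in them was not tested.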
